A study of Mus musculus with 12 samples.

Results

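The fatty acid use and PPAR target genes described here are Cd36, Fabp4, Cpt1a, Acadm, Acadl, Pdk4, Ucp2 and Angptl4, 8 of the 15972 genes that could be named on the array. They were found as the probes, other than control spots, whose accession in the scanner output belongs to one of these symbols in the RefSeq table of the GRCm38.p6 assembly, because the gene name field of that output holds accessions. The search gave 13 of 41174 probes. Fabp4 and Ucp2 have 3 probes each, Cpt1a has 2, 1 of them spotted 10 times on every array, and the other genes have 1 probe each. For a gene with several probes the values below are those of its brightest probe unless another is named.

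Cells of the mouse testis line TM3, which derives from Leydig cells, were exposed to methoxyacetic acid (MAA), a short-chain carboxylic acid and metabolite of the solvent ethylene glycol monomethyl ether. The groups were MAA 1 mM for 3, 8 or 24 h and MAA 5 mM for 3, 8 or 24 h, and each treated RNA was hybridized together with RNA of cells held in plain culture medium for the same time. Each of the 6 treatments had 2 two-color arrays, with RNA from separate pools of 3 treated cultures and the dyes exchanged between the arrays, so that 12 arrays on 3 slides were available. All samples come from 1 cell line, the same untreated cells of a time may serve both concentrations, and p-values measure the spread between these arrays.

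Peroxisome proliferator-activated receptors (PPARs) are nuclear receptors that bind fatty acids and, as dimers with retinoid X receptors (RXRs), switch on genes for the uptake, storage and oxidation of fat. Their targets include fatty acid carriers, the enzymes of mitochondrial and peroxisomal beta-oxidation, a kinase that shifts fuel use from pyruvate towards fat oxidation, and secreted regulators of lipases. In Leydig cells fatty acids and cholesterol esters feed energy supply and the synthesis of testosterone.

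The 2 arrays of a treatment lay on different slides, so the values of single arrays below are also values within a slide. Between 64.3% and 71.3% of the probes of an array had a signal well above background in 1 or both channels, and the median log2 ratio over all probes was between -0.13 and 0.15 per array. Over all probes the ratios of the pair of arrays at 1 mM, 3 h correlated at -0.134, and at 0.30 over the probes well above background, so small ratios in that treatment are the least certain. The control channels of the 1 mM and 5 mM arrays of the same time and replicate correlated at 0.9966 to 0.9986 in log2 signal. Of 8 Leydig cell markers, Star, Cyp17a1 and Insl3 were well above background in the control channel of all 12 arrays, while Cyp11a1, Hsd3b1, Hsd3b6 and Lhcgr were so on none. Their summed signal, out of normalized single channels, was 800 to 896 in the controls and 517 to 523 with MAA at 5 mM, 24 h, and at 1 mM, 24 h it was 833 to 883 and 795 to 840. Of the Sertoli cell markers, Sox9, Clu and Rhox5 were well above background in all control channels, and the summed signal at 24 h was 17400 to 19400 with 5 mM MAA and 4930 to 5520 in its controls, and 17900 to 19600 with 1 mM MAA and 4920 to 5350 in its controls. A sum can hide markers that moved in opposite directions, and single markers were not separated here. The paper reports that MAA induced Cyp11a1 and Rhox5 and repressed Insl3. By the rule given below, 2 of 8 Leydig cell markers and 4 of 6 Sertoli cell markers were called at 5 mM at any time. All RNA came from 1 cell line, so these sums describe marker RNA in that line and do not count cells of a type. The part of these shifts in the results below was not tested.

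A gene was called when the unadjusted limma p was under 0.005 and the change exceeded 1.5-fold (1 mM) or 2-fold (5 mM). By this rule 0 of the 8 genes were called at 3 h or 8 h at either concentration, beside 1.95% and 2.37% of all probes at 1 mM and 3.76% and 5.55% at 5 mM. At 24 h 2 of 8 were called at 1 mM, beside 4.68% of all probes, and 2 of 8 at 5 mM, beside 5.62%. They were the same genes at both concentrations, Fabp4, which rose (beside 3.26% and 3.85% of all probes called up at 1 mM and 5 mM), and Angptl4, which fell (beside 1.41% and 1.77% called down). When the fold threshold was left out and the limma p was adjusted by Benjamini-Hochberg over all probes (under 0.05), a criterion added after the data had been seen, 1, 1 and 3 of the 8 genes passed at 1 mM at 3, 8 and 24 h, beside 4.62%, 5.53% and 11.3% of all probes. At 5 mM 3, 3 and 6 passed, beside 24%, 30.4% and 30.4%. The 6 at 24 h were Fabp4, Ucp2, Acadl, Cpt1a and Acadm, which were higher (5 genes, beside 14.6% of all probes), and Angptl4, which was lower (beside 15.8%). The median log2 ratio of the 8 genes was 0.57 at 5 mM, 24 h and between -0.07 and 0.18 in the other treatments, against -0.10 to 0.03 over all probes. These medians include Cd36, which read 2.16 and 0.25 at 5 mM, 24 h without a signal well above background. With Cd36 left out the middle value there is that of Cpt1a, 0.47.

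**Figure D1:**
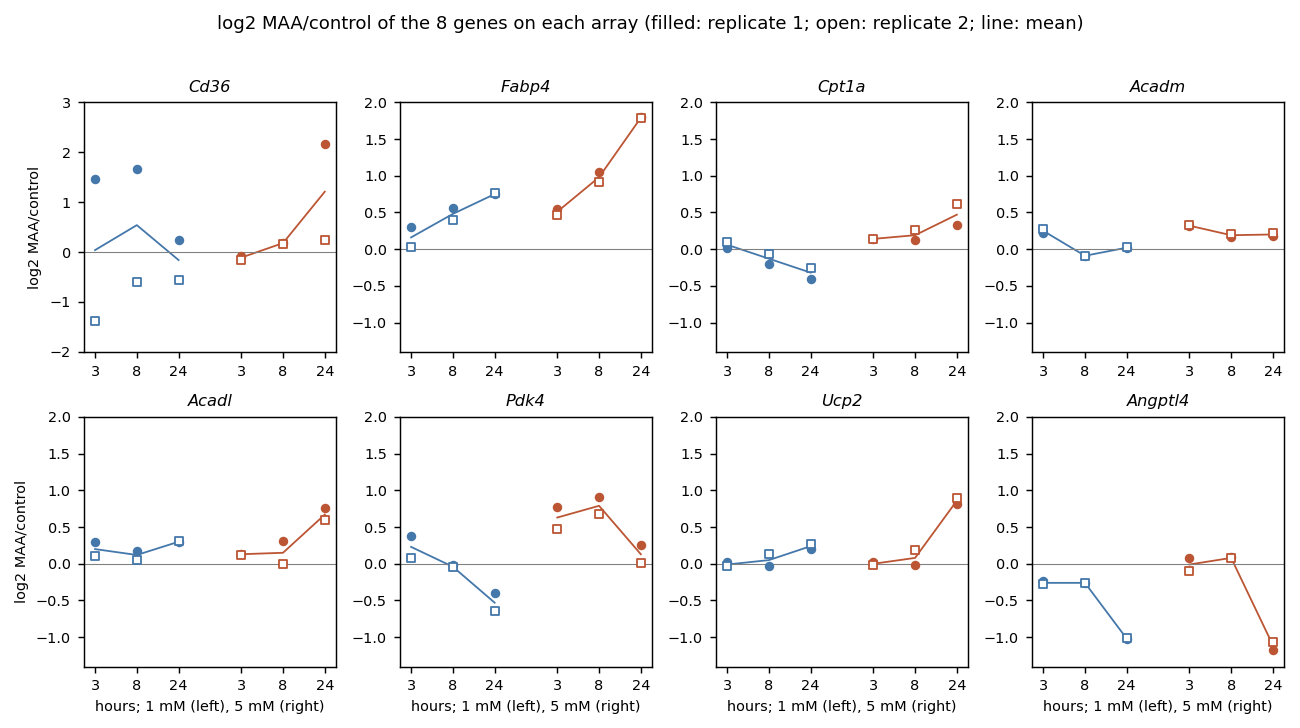
Log2 MAA/control of the 8 genes (brightest probe) on each array, with hours of exposure on the x axis, 1 mM in blue and 5 mM in red. Filled points are replicate 1, open points replicate 2, and lines join the means; Fabp4 reaches 1.79 and Angptl4 -1.11 at 5 mM, 24 h, and only Cd36, which was not well above background on 11 of 12 arrays, has replicates far apart.

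Fabp4, the fatty acid binding protein of adipocytes and macrophages, had the largest change among the 8 genes. At 5 mM its log2 MAA/control was 0.55 and 0.47 on the 2 arrays at 3 h, 1.05 and 0.92 at 8 h, and 1.80 and 1.79 at 24 h. At 1 mM it was 0.30 and 0.03 at 3 h, 0.56 and 0.40 at 8 h, and 0.75 and 0.76 at 24 h. Both arrays were higher at 5 mM than at 1 mM at every time, and all 12 ratios were above 0. The rise at 24 h was 3.47-fold at 5 mM (log2 1.79 ± 0.081 SE, limma adjusted p = 1.41e-05) and 1.69-fold at 1 mM (0.75 ± 0.081, limma adjusted p = 0.00193). At 5 mM, 8 h the change of 1.98-fold lay just under the fold threshold, with a limma adjusted p of 0.000105, and without replicate 2 of that treatment it was 1.05 in log2 and passed. With normexp background correction and loess, the value at 1 mM, 24 h was 0.42 and was not called.

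The other Fabp4 probes were also highest at 5 mM, 24 h. There they read 1.37 and 1.65, and 1.66 and 1.70, and the second of them, which reached 1.00 in log2 at 8 h, was called there as well. At 3 h they lacked the order by concentration of the brightest probe: one read 0.22 and 0.22 at 5 mM and 0.14 and 0.26 at 1 mM, and the other 0.30 and 0.24 at 5 mM and 0.40 and 0.53 at 1 mM. All 3 probes were dim compared with other members: the normalized signal of the brightest was 137 to 147 in the control channels at 24 h, 230 to 250 with 1 mM MAA and 494 to 502 with 5 mM. Control signals at 8 h, 235 to 258, were above those at 3 h, 139 to 165, and at 24 h.

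Markers of the cell types in which Fabp4 is best known were set beside this rise. Of 6 adipocyte markers only Retn was well above background in all control channels, and Adipoq and Cfd were so in none. The summed adipocyte signal at 5 mM, 24 h was 371 to 391 with MAA and 275 to 300 in the controls, and at 1 mM, 24 h it was 215 to 238 and 277 to 318. Before 24 h at 5 mM it was lower with MAA, 277 to 321 against 529 to 666 at 3 h and 251 to 290 against 297 to 315 at 8 h. At 1 mM, 8 h it was higher, 395 to 415 against 337 to 343. Of 5 macrophage markers with a probe, Ptprc, Itgam and Adgre1 were well above background in no control channel, and the summed signal, of which Cd14 and Lyz2 were the measured part, was 1160 to 1200 with 5 mM MAA and 2000 to 2060 in the controls at 24 h. The macrophage sum was therefore lower where Fabp4 was highest, and at 1 mM, 24 h it was 2640 to 2670 against 2070 to 2150. At 5 mM it was also lower at 3 h (453 to 472 against 752 to 845) and at 8 h (468 to 504 against 1050 to 1110). Fabp4 is also made by endothelial cells. Of 6 endothelial markers Flt1 was well above background in all control channels, and Pecam1, Cdh5 and Kdr were so in none. The summed endothelial signal was higher with MAA where Fabp4 was: 449 to 552 against 203 to 264 in the controls at 5 mM, 24 h, 342 to 404 against 184 to 212 at 5 mM, 8 h, and 260 to 281 against 201 to 209 at 1 mM, 24 h. These sums are of marker RNA within the TM3 line and do not show which markers moved. Their relation to the Fabp4 rise was not tested.

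Cd36, the membrane receptor that takes up fatty acids, could not be measured. Its single probe was not well above background in either channel on 11 of 12 arrays, and the exception, replicate 1 of 1 mM, 24 h, had normalized signals of 57.4 with MAA and 48.4 in the control. The log2 ratios ran from -1.38 to 2.16, with a standard error of 0.767, and the pair of arrays at 1 mM, 3 h read 1.47 and -1.38. No direction can be read from this probe.

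The sequences just before the start site are shown for 3 of the enzymes and carriers of mitochondrial fat use that were higher at 5 mM, 24 h. They were picked because their windows start outside the annotated gene, unlike that of Cpt1a, which was also higher. The Ucp2 window ends 21 bases inside its annotated gene, and those bases were searched but are not printed. A PPAR with its RXR binds pairs of the half-site AGGTCA 1 base apart. The sequences are from the RefSeq promoter table of GRCm38.p6, 5′ to 3′ on the strand of the gene. Capitals mark each AGGTCA or GC box (GGGCGG) on either strand, so that the reverse complement TGACCT or CCGCCC is in capitals too.
Acadm, chr3:153944644-153944893, minus strand: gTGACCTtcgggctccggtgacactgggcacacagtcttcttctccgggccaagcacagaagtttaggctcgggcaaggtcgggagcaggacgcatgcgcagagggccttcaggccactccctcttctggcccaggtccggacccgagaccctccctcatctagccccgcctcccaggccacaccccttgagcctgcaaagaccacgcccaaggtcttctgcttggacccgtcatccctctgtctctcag
Acadl, chr1:66863310-66863559, minus strand: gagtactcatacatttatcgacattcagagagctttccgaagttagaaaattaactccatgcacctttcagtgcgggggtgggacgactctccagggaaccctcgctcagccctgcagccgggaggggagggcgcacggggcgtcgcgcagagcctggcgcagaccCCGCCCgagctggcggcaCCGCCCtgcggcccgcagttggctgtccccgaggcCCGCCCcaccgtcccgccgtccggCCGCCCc
Ucp2, chr7:100493108-100493336, plus strand: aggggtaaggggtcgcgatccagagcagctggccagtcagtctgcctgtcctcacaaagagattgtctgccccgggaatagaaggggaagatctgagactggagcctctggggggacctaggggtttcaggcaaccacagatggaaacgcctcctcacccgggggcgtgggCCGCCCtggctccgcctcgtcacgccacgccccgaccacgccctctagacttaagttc

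Of the 8 genes, 6 had an entry in the table, and the 250 bases before the start were searched. The half-site occurred once each before Acadm (249 bases before the start), Cpt1a (94 bases) and Cd36 (228 bases) and not before Acadl, Pdk4 or Ucp2. It occurs in 14% of the 32851 windows of that length in the table. The pair 1 base apart, AGGTCANAGGTCA, was in none of the 6 windows and is in 0.0335% of all. GC boxes numbered 4 before Acadl, 2 before Cpt1a, 2 before Cd36 and 1 before Ucp2, and 32.7% of all windows hold at least 1. The Cpt1a and Cd36 windows lie inside the annotated gene, which has another start further upstream. A match is a description of letters and not of binding.

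Cpt1a, carnitine palmitoyltransferase, admits long-chain fatty acids to mitochondria and is the controlled step of their oxidation. Its log2 ratios at 5 mM were 0.14 and 0.14 at 3 h, 0.12 and 0.26 at 8 h, and 0.33 and 0.61 at 24 h. At 1 mM they were 0.01 and 0.10 at 3 h, -0.20 and -0.06 at 8 h, and -0.40 and -0.25 at 24 h. The signs of the 24 h ratios were thus opposite at the 2 concentrations on all 4 arrays. The ratio at 5 mM, 24 h was 1.39-fold (0.47 ± 0.0853, limma adjusted p = 0.0046), below the 2-fold threshold, and at 1 mM, 24 h it was -0.32 ± 0.0853 (limma adjusted p = 0.0524).

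The repeated spots show how much of the Cpt1a spread lies between arrays. The 10 spots of an array had an SD of 0.0147 to 0.0411 in log2, so the gap between 0.33 and 0.61 on the pair of arrays at 5 mM, 24 h exceeds the spread within an array. The second Cpt1a probe gave 0.64 and 0.49 at 5 mM, 24 h and -0.19 and -0.37 at 1 mM, 24 h, with the same signs as the first.

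Acadm, the medium-chain acyl-CoA dehydrogenase, had the most even values of the 8 genes. At 5 mM its ratios were 0.31 and 0.33 at 3 h, 0.17 and 0.21 at 8 h, and 0.18 and 0.22 at 24 h. At 1 mM they were 0.22 and 0.28 at 3 h, -0.09 and -0.10 at 8 h, and 0.01 and 0.03 at 24 h. The largest, 1.25-fold at 5 mM, 3 h (0.32 ± 0.0517, limma adjusted p = 0.00339), was small beside the fold threshold, and the gene passed the adjusted p at every 5 mM time and at 1 mM, 3 h (adjusted p = 0.0416).

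Acadl, the long-chain acyl-CoA dehydrogenase, was near its control until 24 h. Its ratios at 5 mM were 0.14 and 0.12 at 3 h, 0.31 and 0.00 at 8 h, and 0.76 and 0.59 at 24 h. At 1 mM they lay between 0.05 and 0.31 over the 6 arrays. At 5 mM, 24 h both arrays exceeded all others, at 1.60-fold (0.67 ± 0.0918, limma adjusted p = 0.00119).

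Pdk4, the kinase that inhibits pyruvate dehydrogenase and is a classical PPAR target, had its highest ratios early. At 5 mM they were 0.78 and 0.48 at 3 h, 0.91 and 0.68 at 8 h, and 0.26 and 0.01 at 24 h. At 1 mM they were 0.38 and 0.08 at 3 h, -0.02 and -0.05 at 8 h, and -0.40 and -0.65 at 24 h. The 5 mM values at 3 h (1.55-fold, limma adjusted p = 0.00674) and 8 h (1.73-fold, 0.79 ± 0.119, limma adjusted p = 0.00179) stayed under 2-fold, and so the gene was not called. At 1 mM, 24 h the ratio was -0.53 ± 0.119 (limma adjusted p = 0.0309), a 1.44-fold lower level that stayed under 1.5-fold.

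Ucp2, an uncoupling protein of the mitochondrial inner membrane, was level until 8 h and higher at 24 h. At 5 mM its ratios were 0.03 and -0.02 at 3 h, -0.02 and 0.19 at 8 h, and 0.82 and 0.90 at 24 h. At 1 mM they were between -0.03 and 0.13 at 3 and 8 h, and 0.20 and 0.27 at 24 h. The level at 5 mM, 24 h was 1.81-fold that of the control (0.86 ± 0.0724, limma adjusted p = 0.000138), close under the 2-fold threshold. The second probe gave 0.68 and 0.89 there (limma adjusted p = 0.00118), and the third, with signals of 17.7 to 64.2 over all channels, gave 0.61 and 1.02 (limma adjusted p = 0.0857).

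Angptl4, a secreted inhibitor of lipoprotein lipase and one of the most responsive PPAR targets in many cells, fell. At 24 h its log2 ratios with 5 mM MAA were -1.17 and -1.06, and those with 1 mM MAA were -1.03 and -1.01. Before 24 h they were 0.08 and -0.10 at 5 mM, 3 h, 0.09 and 0.08 at 5 mM, 8 h, and between -0.28 and -0.24 on the 4 arrays at 1 mM, 3 and 8 h. All 4 arrays at 24 h were below every earlier array. The fall was 2.16-fold at 5 mM (-1.11 ± 0.0625, limma adjusted p = 2.96e-05) and 2.03-fold at 1 mM (-1.02 ± 0.0625, limma adjusted p = 0.00026), and the difference between the concentrations at 24 h was -0.09 ± 0.0883 (limma adjusted p = 0.645). The direction is opposite to that of Fabp4 in the same RNA.

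The single channels show which side of the Angptl4 ratio moved. The normalized control signal was 6850 to 7030 at 3 h, 19600 to 20800 at 8 h and 20100 to 20500 at 24 h. With 5 mM MAA it was 6540 to 7210, 20600 to 22100 and 8980 to 9840 at the same times, and with 1 mM 5790 to 5800, 16600 to 17100 and 9830 to 10100. At 8 h both treated and control cells were thus far above their 3 h levels, and at 24 h the controls had stayed there while the treated cells were lower at both concentrations. Pdk4 also had control signals that differed with culture time, 266 to 361 at 3 h, 1970 to 2220 at 8 h and 1210 to 1500 at 24 h, and its 5 mM signals at 8 h were 3530 to 3680. Single channels of different arrays carry the error of a normalization between arrays, and the levels over time are a description with no test.

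**Figure D2:**
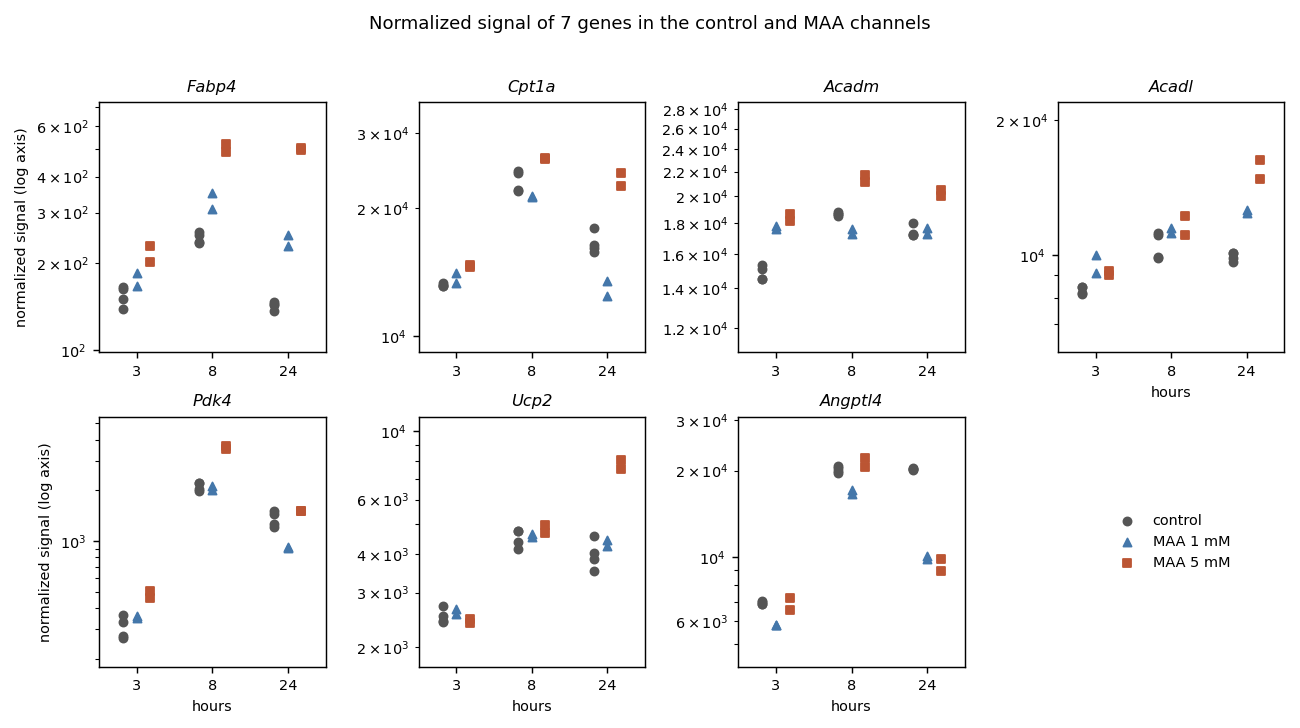
Normalized single-channel signal (log axis) of the 7 genes that were measured, by hours in culture, with control channels in grey (4 per time), MAA 1 mM in blue and MAA 5 mM in red (2 each). Angptl4 with MAA lies near 10000 at 24 h against about 20000 in the controls, and Fabp4 with 5 mM MAA lies above every control at each time.

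The response at 5 mM was set against that at 1 mM for each gene and time as a limma contrast, 24 comparisons in all, with adjustment over all probes. None passed at 3 h, 2 passed at 8 h and 3 at 24 h, beside 3.4%, 10.1% and 8.41% of all probes. The difference in log2 ratio, 5 mM less 1 mM, was 1.04 ± 0.115 for Fabp4 at 24 h (limma adjusted p = 0.00297), 0.79 ± 0.121 for Cpt1a at 24 h (limma adjusted p = 0.00935), 0.62 ± 0.102 for Ucp2 at 24 h (limma adjusted p = 0.0127), 0.83 ± 0.169 for Pdk4 at 8 h (limma adjusted p = 0.0235) and 0.50 ± 0.115 for Fabp4 at 8 h (limma adjusted p = 0.034). Each was a higher ratio at 5 mM. The mean of the 3 Ucp2 probes gave 0.66 at 24 h (limma adjusted p = 0.112), and its second probe alone 0.56 (limma adjusted p = 0.0646). Just short of the threshold were Acadm at 8 h, 0.28 (limma adjusted p = 0.0513), Angptl4 at 8 h, 0.34 (limma adjusted p = 0.0523), and Pdk4 at 24 h, 0.66 (limma adjusted p = 0.0562). Only the Fabp4 difference at 24 h passed in all 20 alternatives. The Cpt1a difference was lost without 1 mM, 24 h replicate 1 (0.72, limma adjusted p = 0.074) or without 5 mM, 24 h replicate 2 (0.65, limma adjusted p = 0.0626), the Ucp2 difference without any 1 of its 4 arrays (0.58 to 0.66, limma adjusted p = 0.062 to 0.0905), the Pdk4 difference without any 1 of its 4 arrays (0.71 to 0.94, limma adjusted p = 0.0633 to 0.133), and the Fabp4 difference at 8 h without 10 of the 12 arrays taken singly.

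Times were compared at 5 mM in the same way, 16 comparisons between neighbouring times. None passed between 3 h and 8 h with the brightest probes, beside 5.1% of all probes, and 4 passed between 8 h and 24 h, beside 8.91%. The change in log2 ratio from 8 h to 24 h was -1.20 ± 0.0883 for Angptl4 (limma adjusted p = 0.00127), 0.77 ± 0.102 for Ucp2 (limma adjusted p = 0.00564), 0.81 ± 0.115 for Fabp4 (limma adjusted p = 0.00692) and 0.52 ± 0.13 for Acadl (limma adjusted p = 0.0496). From 3 h to 8 h the brightest Fabp4 probe changed by 0.47 (limma adjusted p = 0.0626), while the other Fabp4 probes passed, at 0.75 (limma adjusted p = 0.0136) and 0.73 (limma adjusted p = 0.019). At 1 mM the Angptl4 ratio changed by -0.76 ± 0.0883 from 8 h to 24 h (limma adjusted p = 0.0207, beside 0.576% of all probes), a call lost without any of the 1 mM, 8 h or 24 h arrays (-0.77 to -0.75, limma adjusted p = 0.125 to 0.189) or the 5 mM arrays of those times (-0.76, limma adjusted p = 0.0531 or 0.0559). Pdk4 differed in the other direction from Ucp2 and Fabp4, at -0.66 ± 0.169 (limma adjusted p = 0.0546). Angptl4 and Ucp2 kept their calls with any 1 array left out, but the mean of the 3 Ucp2 probes did not pass (0.78, limma adjusted p = 0.0679). Acadl lost its call without any 1 of the 12 arrays (0.36 to 0.68, limma adjusted p = 0.0552 to 0.234) and Fabp4 without 5 mM, 8 h replicate 2 (0.74, limma adjusted p = 0.0509), 5 mM, 24 h replicate 1 (0.80, limma adjusted p = 0.0538) or 5 mM, 24 h replicate 2 (0.82, limma adjusted p = 0.0519).

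None of the 6 PPAR and RXR genes was called at either concentration. Over all probes 1.95% to 4.68% were called at 1 mM and 3.76% to 5.62% at 5 mM. A count of none among 6 genes is near these shares. Pparg, the PPAR of fat storage, read 0.39 and 0.41 at 5 mM, 24 h (0.40 ± 0.0856, limma adjusted p = 0.00979) and between -0.20 and 0.04 at 5 mM before that. Ppara read between -0.33 and 0.12 and Ppard between -0.36 and 0.61 over the 5 mM arrays, and neither passed the adjusted p. Among their partners, Rxra read -0.62 and -0.54 at 5 mM, 3 h and -1.02 and -0.70 at 8 h (-0.86 ± 0.0803, limma adjusted p = 0.000181), and -0.06 and -0.06 at 24 h. Rxra stayed under the 2-fold threshold, which it passed at 8 h without replicate 2 of that treatment (-1.02). Rxrb read between -0.17 and 0.08 over the 5 mM arrays, and Rxrg was not well above background.

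A wider list of 150 other genes of fatty acid handling and PPAR action, of which 145 had a probe, was grouped by role. At 1 mM 4, 5 and 6 were called at 3, 8 and 24 h, or 2.76%, 3.45% and 4.14%, beside 1.95%, 2.37% and 4.68% of all probes, and at 5 mM 9, 11 and 12, of which 5, 8 and 10 rose. The shares called at 5 mM, 6.21%, 7.59% and 8.28%, stand beside 3.76%, 5.55% and 5.62% of all probes, and 2.02%, 3.06% and 3.85% of all probes were called up. By the adjusted p alone, 35, 67 and 58 of the 145 passed at 5 mM, or 24.1%, 46.2% and 40%, beside 24%, 30.4% and 30.4% of all probes. Of the 145 genes, 108 had a signal well above background in 1 or both channels of all 12 arrays, and among all probes measured in that way on both arrays of a treatment 5.26%, 7.8% and 7.3% were called at 5 mM. No such share was computed for the adjusted p, so its shares are set beside all probes only, dim ones included. The median log2 ratio of the 145 was -0.02, 0.07 and 0.09 at 5 mM.

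Enzymes of mitochondrial oxidation had small changes. Of 16 beta-oxidation genes other than Acadm and Acadl 0 were called at any 5 mM time, while by the adjusted p alone 4 were higher and 1 lower at 3 h, 8 and 4 at 8 h, and 5 and 4 at 24 h. These are 5, 12 and 9 of 16, beside 24%, 30.4% and 30.4% of all probes. Their median log2 ratio was 0.14, 0.21 and 0.15. Neither the 10 other genes of the carnitine shuttle and malonyl-CoA control nor the 8 other genes of pyruvate dehydrogenase control held a call at 5 mM. Over all probes 3.76%, 5.55% and 5.62% were called at 3, 8 and 24 h. The absence of calls in groups of 8, 10 or 16 genes is near these shares. Ketone body enzymes and uncoupling proteins held 1 call each, Bdh1 at 8 h and Ucp1 at 24 h, and neither probe was well above background in either channel, so that no fold is given.

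The acyl-CoA synthetases and thioesterases load fatty acids onto coenzyme A and release them. At 5 mM 2 and 3 of 18 such genes were called at 3 h and 8 h (11.1% and 16.7%, beside 3.76% and 5.55% of all probes). Roles were not tested against each other. At 5 mM, 24 h these genes held 5 of the 12 calls: 4 rose and 1 fell (27.8%, beside 5.62% of all probes). Acsm3, which links medium-chain acids to coenzyme A, read 2.98 and 3.61 there (3.30 ± 0.226, limma adjusted p = 5.95e-05) and 2.66 and 2.97 at 1 mM, 24 h. Its control channel was well above background on only 1 of the 2 arrays in each case, and at 8 h on neither, where the rise was at least 2.83-fold at 5 mM and at least 2.27-fold at 1 mM, from the bright group against the lowest measurable signal. With normexp and loess Acsm3 was 1.16 at 5 mM, 24 h, still called, and 0.59 at 8 h, where the call was lost. Acss2, which makes acetyl-CoA from acetate, read 0.88 and 0.64 at 5 mM, 3 h, 1.52 and 1.65 at 8 h, and 1.77 and 1.92 at 24 h, and was called at 8 h and 24 h at both concentrations. Acot2, a mitochondrial thioesterase, read -1.32 and -1.73 at 5 mM, 3 h and -2.34 and -0.64 at 8 h. Its SE of 0.354 is shared over all treatments, and the pair of arrays at 8 h lay far apart. The Acot2 calls held in 11 of 23 alternatives at 3 h and 9 of 23 at 8 h. Without 5 mM, 8 h replicate 1 the value at 8 h was -0.64.

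The lipases of the list differed among themselves. Pnpla2, the lipase that starts the breakdown of triglyceride, read 1.25 and 1.18 at 5 mM, 3 h, 1.22 and 1.10 at 8 h, and 0.88 and 0.62 at 24 h, and was called at the earlier times and at 1 mM, 3 h (0.63). Mgll, the monoglyceride lipase that ends it, read -0.83 and -1.53 at 5 mM, 3 h, -1.29 and -1.44 at 8 h, and 0.40 and 0.20 at 24 h. The Mgll call at 3 h was lost without replicate 2 (-0.83) and with normexp and loess. Lipe, the hormone-sensitive lipase, read 0.21 and -0.02 at 5 mM, 3 h, -0.48 and -0.33 at 8 h, and -0.37 and -0.33 at 24 h, and was not called. Lpl, lipoprotein lipase, read between -0.16 and 0.17 over the 5 mM arrays and was not called. Cidea, a protein of the lipid droplet coat, read 1.20 and 2.14 at 5 mM, 24 h (1.67 ± 0.335, limma adjusted p = 0.00733) and lost that call without replicate 2 (1.20, limma adjusted p = 0.12) and with normexp and loess (0.30). At 8 h it was not called (1.82 and 0.62) unless replicate 2 was left out (1.82). Fabp7, called at 24 h, was not well above background.

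Of the peroxisomal genes, Pex11a and Abcd2 had measurable calls. Pex11a, which divides peroxisomes, read 0.97 and 1.28 at 5 mM, 3 h (1.12 ± 0.129, limma adjusted p = 0.000677) and 0.19 and 0.37 at 24 h, and without replicate 2 its value at 3 h was 0.97, under the fold threshold. Abcd2, a transporter of very long chain acyl-CoA, read 0.66 and 0.05 at 5 mM, 3 h, 1.47 and 1.76 at 8 h, and 1.74 and 2.40 at 24 h (2.07 ± 0.20, limma adjusted p = 0.000245). With normexp and loess Abcd2 was 0.78 at 8 h and 0.91 at 24 h, both under the fold threshold. Ehhadh was also called at 8 h, but was not well above background.

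Among secreted factors Fgf21, a hormone of the fasting response, changed sign with time at 5 mM: it read -1.19 and -1.34 at 3 h, where it was called, 0.78 and 0.72 at 8 h, and -0.23 and -0.58 at 24 h. At 1 mM it read 0.93 and 0.89 at 8 h and 0.92 and 0.91 at 24 h, and was called at both times. Of other reported PPAR targets, Vnn1, a pantetheinase, was called at 24 h only (1.79 and 1.60, and 0.61 with normexp and loess, under the threshold), and Txnip, a thioredoxin inhibitor, at 8 h only (0.97 and 1.18, and 0.97 without replicate 2, under the threshold). Pck1, called at 3 h, was not well above background. Differences between times were not tested for these genes. Of 14 coregulators, Sirt1, a deacetylase that acts on PGC-1alpha, was called as lower at 3 h (-1.12 and -1.05) and 24 h (-1.17 and -1.25), and Lpin1, which acts with PPARalpha and PGC-1alpha, at 8 h (-1.06 and -1.18).

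**Figure D3:**
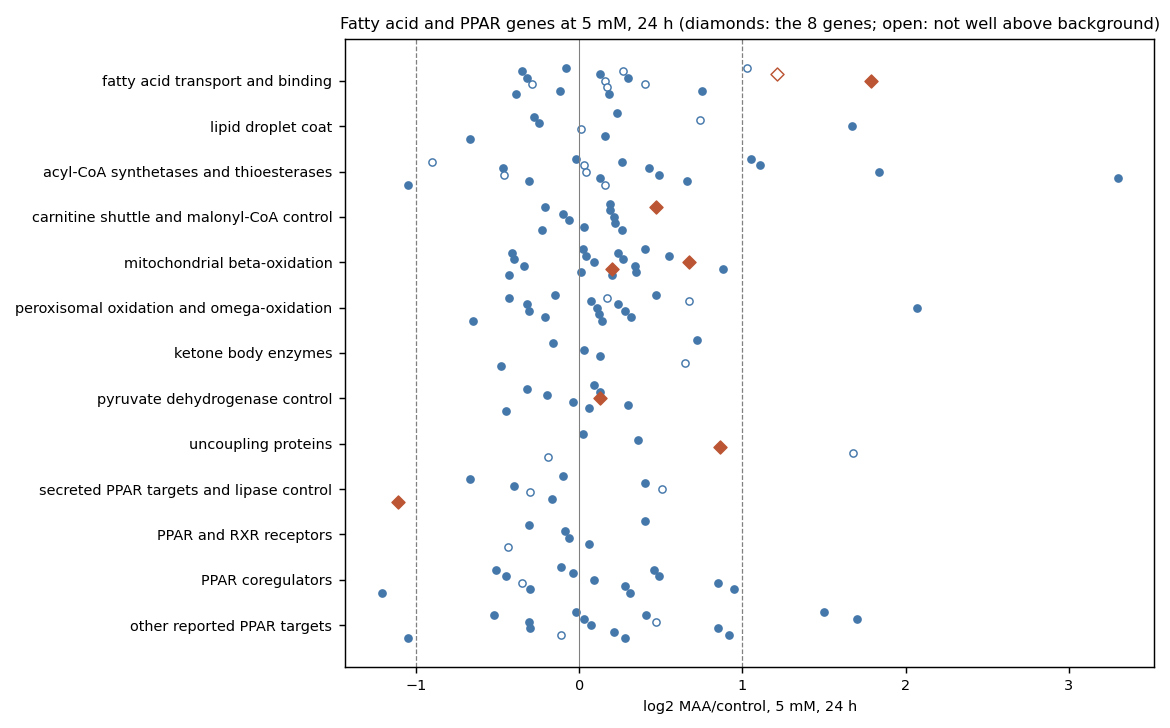
Log2 MAA/control at 5 mM, 24 h (x axis) of the 153 genes of the list with a probe, by role (rows), with diamonds for the 8 genes, open symbols for probes not well above background in either channel and dashed lines at the 2-fold threshold. Fabp4 at 1.79 and Angptl4 at -1.11 lie outside the lines, the other measured members inside them, and the right-most point is Acsm3 at 3.30.

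**Figure D4:**
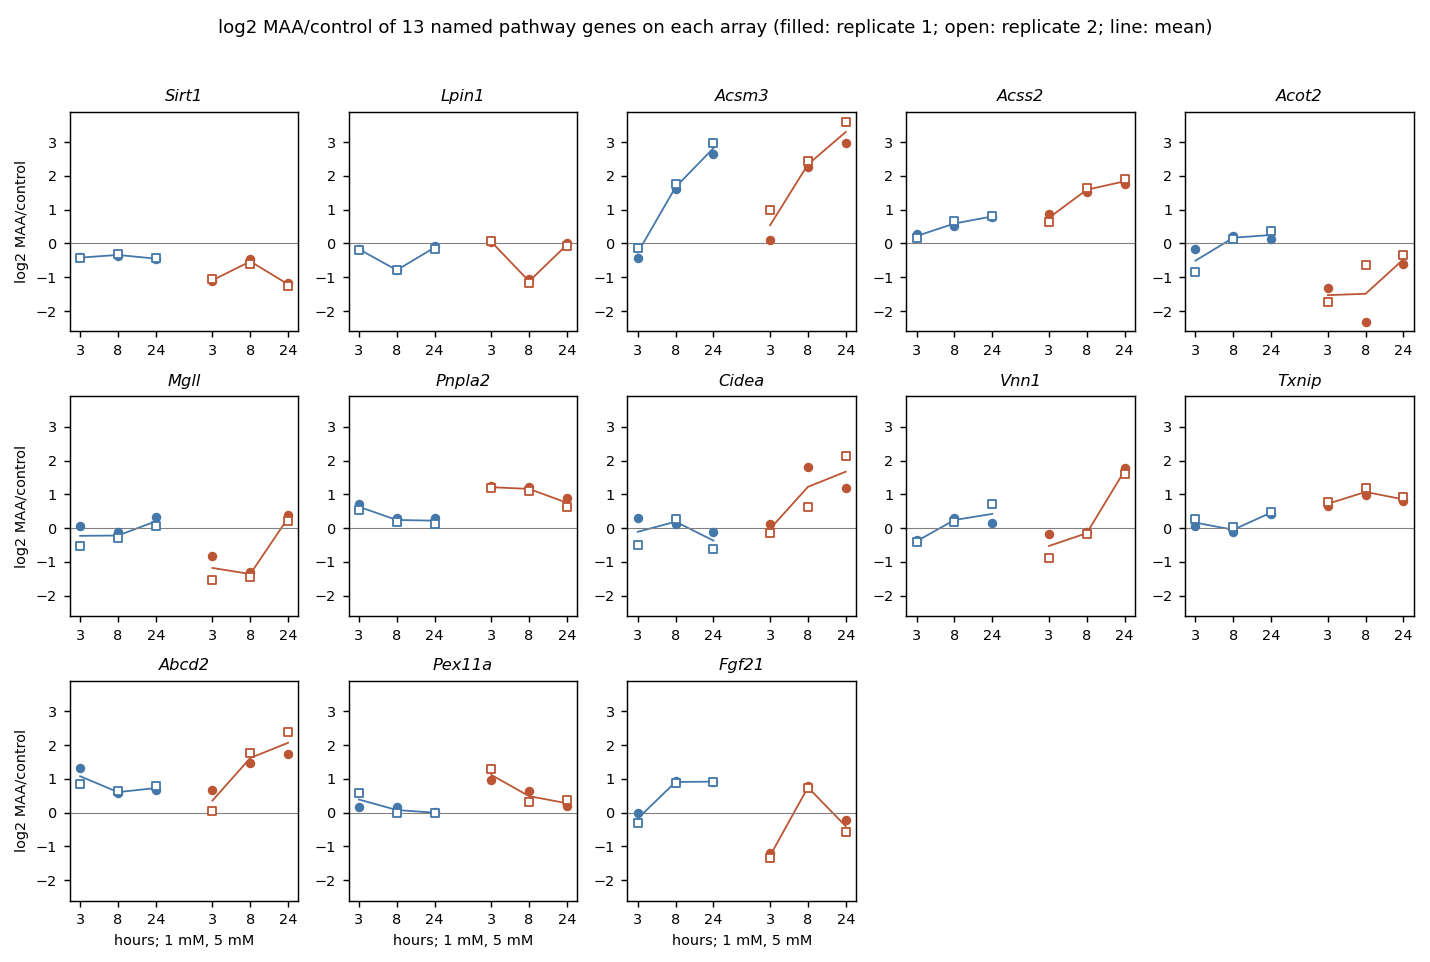
Log2 MAA/control of 13 named genes of the wider list on each array, with hours on the x axis, 1 mM in blue and 5 mM in red; filled points are replicate 1, open points replicate 2, lines join the means. Acss2, Acsm3 and Abcd2 are highest at 5 mM, 24 h, Fgf21 goes from -1.27 at 3 h to 0.75 at 8 h, and the replicates of Acot2 at 5 mM, 8 h are far apart.

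For each called member, the genes with the most similar log2 ratios over the 12 arrays were listed, among well measured and named probes. For Fabp4 (15026 probes) they were Exoc6 (Pearson r = 0.985), a subunit of the exocyst, and Pfkp (r = 0.98), the platelet form of phosphofructokinase, with ratios at 5 mM, 24 h of 1.99 and 1.52. For Angptl4 (15028 probes) they were Wdr55 (r = 0.971) and Plrg1 (r = 0.969), with ratios of -0.33 and -0.54. The 12 arrays share treatments in pairs and may share untreated cells, and the highest of so many correlations is high by selection.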

How the data were processed

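Log2 MAA/control was measured in TM3 cells on 12 two-color Agilent arrays, 2 for each of 6 treatments. The authors made the scanner output with Feature Extraction 9.5.3.1, which subtracted background and normalized the dyes (linear plus LOWESS), so that the deposited processed signals are normalized intensity values. The deposited table of each array holds log10 ratios, already turned to MAA over control, used as an alternative only. The authors' combined ratios and p-values from their error model were not used here.

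From the deposited intensity values log2 MAA/control was computed, with no centring of the arrays. The 1639 control spots and, per array, 124 to 208 outlier spots were left out and repeated spots averaged. Symbols came from accessions in a RefSeq table (22072 of 41174 probes). All 12 arrays were fitted with limma 3.58.1 in R 4.3.3 (lmFit and eBayes, 1 coefficient per treatment, 6 residual and 1.515 prior degrees of freedom). The steps were tested on simulated data. Levels of single channels were normalized with Aquantile. Python 3.11.15 and matplotlib 3.10.9 drew the figures. No counts exist for arrays, and their number limits the precision.

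Beside the 8 genes, the text names the PPAR and RXR genes, up to 3 genes of each role that were called at 5 mM and well above background, by the largest change, the 2 genes nearest to each called member, and cell type markers. Other genes are named where a count is small. A gene that this rule picks is not reported here. The members, lists and rules were chosen with earlier results of these data known. Alternatives tried were normexp with an offset of 50 and loess, the deposited ratios, centring, dim probes left out, outlier spots kept, blocks for replicate number and slide, other call rules, the arrays of 1 concentration alone, the mean of all probes of a gene, and each array left out in turn.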

Additional observations from a re-analysis of the deposited data

Results flagged for a closer look

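Responses that differed between concentrations or between times, by a limma contrast with adjusted p under 0.05 over all probes, are listed here as values. Fabp4 had a higher log2 ratio at 5 mM than at 1 mM by 0.50 at 8 h (limma adjusted p = 0.034) and 1.04 at 24 h (limma adjusted p = 0.00297), and its ratio at 5 mM was higher at 24 h than at 8 h by 0.81 (limma adjusted p = 0.00692). Cpt1a differed by 0.79 between 5 mM and 1 mM at 24 h (limma adjusted p = 0.00935), with opposite signs on all arrays. Pdk4 differed by 0.83 between the concentrations at 8 h (limma adjusted p = 0.0235). Ucp2 differed by 0.62 between the concentrations at 24 h (limma adjusted p = 0.0127) and by 0.77 between 24 h and 8 h at 5 mM (limma adjusted p = 0.00564). Acadl differed by 0.52 between 24 h and 8 h at 5 mM (limma adjusted p = 0.0496). Angptl4 was lower at 24 h than at 8 h, by -1.20 at 5 mM (limma adjusted p = 0.00127) and by -0.76 at 1 mM (limma adjusted p = 0.0207), and the latter passed in 10 of 21 alternatives. Groups of 2 arrays are too small for a search for single outlying arrays.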

How the results depend on the processing

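None of the alternatives turned a called value. Over 11 alternatives of processing or call rule, 506 of the members' values stayed called or uncalled as before, 1 lost its call and 15 gained one. Most gains came when the fold threshold was left out. In the main fit only 2 of the 8 genes were called at 1 mM, 24 h and 2 at 5 mM, 24 h. Most of the values that stayed as before thus had no call to lose. With normexp and loess, 1 of the 8 genes was called at 1 mM, 24 h, the other pathway genes called numbered 0, 2 and 3 at 1 mM and 5, 6 and 7 at 5 mM, 9 concentration differences passed and 7 time differences. The concentration differences that passed numbered 9 with the deposited ratios, 8 without dim probes and 1 with arrays centred on their median. With the slide as a block 1 of the 8 genes was called at 5 mM, 8 h. With the arrays of 1 concentration alone 0 time differences passed, in a fit with fewer arrays. With the mean of all probes of a gene 1 pathway gene was called at 1 mM, 3 h. With the adjusted p and no fold threshold, chosen after seeing the data, 1, 1 and 3 of the 8 genes and 9, 12 and 17 pathway genes passed at 1 mM, and 3, 3 and 6 genes and 35, 67 and 58 pathway genes at 5 mM. The replicate number, which is also the dye orientation, as a block gave 12 concentration and 7 time differences. Deviations of same-numbered arrays correlated above 0 in all 15 pairs and above 0.1 in 14 (0.075 to 0.515, median 0.375). Over detected probes they ran from 0.0394 to 0.773. MAA was in the green channel on every replicate 1 array and in the red channel on every replicate 2 array. Dye and replicate number can therefore not be told apart, and the main fit has no term for either. Leaving 1 array out also leaves its treatment with 1 dye orientation only. With single arrays left out, members called ranged from 0 to 0 at 1 mM, 3 h and 8 h and 5 mM, 3 h, from 0 to 1 at 5 mM, 8 h, and stayed at 2 at 24 h at both concentrations. Pathway genes called ranged from 2 to 5, 5 to 6 and 5 to 8 at 1 mM and from 5 to 10, 9 to 14 and 9 to 12 at 5 mM, concentration differences from 2 to 5 and time differences from 2 to 3. The causes were not tested. Signal near background limits Cd36 and Rxrg, for which no alternative gives a direction.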

Other observations

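The untreated cells themselves differed with time in culture in several of these genes, as normalized control signals on 4 arrays per time. Cpt1a was 13100 to 13300 at 3 h, 21900 to 24400 at 8 h and 15800 to 17900 at 24 h, and Ucp2 was 2420 to 2720, 4160 to 4760 and 3530 to 4560. Acadm was 14500 to 15300, 18500 to 18800 and 17200 to 18000, and Acadl 8160 to 8470, 9830 to 11200 and 9640 to 10100. In each of the 4 genes all control channels at 8 h were above all those at 3 h. Ratios to the control of the same time leave this change out. The levels rest on a normalization between arrays and were not tested.

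Outside the rule for named genes and chosen after their values were seen, Acsl4 rose (1.16 and 1.07) and Acsl5 fell (-1.13 and -0.97) at 5 mM, 24 h, members of the same family of long-chain acyl-CoA synthetases. Acot11 was called as higher at 3 h (1.23 and 1.01) and 24 h (1.11 and 0.98) at 5 mM. At 1 mM, 24 h the coactivator Ppargc1b was called as higher (0.61 and 0.68) and the corepressor Nrip1 as lower (-0.66 and -0.55). They were the 2 calls among 14 coregulators there, beside 4.68% of all probes, and neither gene was called at 5 mM.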
